A study of Homo sapiens with 12 samples.

Results

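The genes described here are 39 human genes of the interferon response and of antigen presentation, chosen by name and read from both deposited count tables. They are 39 of 63299 genes listed. By role, 21 are antiviral effectors, 11 are signalling proteins, nucleic acid sensors and regulators, and 7 belong to antigen presentation on major histocompatibility complex (MHC) class I. Another 42 lines that carry one of these names lie on alternative sequences outside the chromosomes and held 0 counts.

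RNA was sequenced from LNCaP, a human prostate cancer line of lymph node origin, in which doxycycline switches on a short hairpin RNA that targets PRMT5. PRMT5 is the main enzyme that adds symmetric dimethyl marks to arginines of histones and spliceosomal proteins. There were 4 groups of 3 libraries: knockdown with irradiation (doxycycline at 1 µg/mL every 48 h, 2 Gy, harvest 24 h later), knockdown without irradiation (the same doxycycline, 0 Gy), control with irradiation (no doxycycline, 2 Gy, harvest 24 h later) and control without irradiation (no doxycycline, 0 Gy). Every group carried the same hairpin construct, so doxycycline and hairpin induction cannot be told apart, and the irradiated and non-irradiated libraries come in separate tables, so irradiation and table cannot be told apart either. The labels do not say whether replicates are separate cultures, so p-values measure the spread between these libraries, which may be technical. The design asks what loss of PRMT5 does to these genes with and without irradiation, and what irradiation does with and without PRMT5.

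Interferons bind cell surface receptors whose JAK kinases phosphorylate STAT proteins, and STAT2 with IRF9 is part of the complex that switches on interferon-stimulated genes through a DNA element called ISRE. The same pathway raises the class I machinery: the proteasome subunits PSMB8 and PSMB9 cut proteins into peptides, TAP1 and TAP2 carry the peptides into the endoplasmic reticulum, and heavy chains such as HLA-B and HLA-C present them at the cell surface together with B2M. LNCaP cells have been described as weak responders to interferon.

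The libraries held 14801939 to 33158865 counts. Levels are given in CPM, counts per 1000000 of the library size scaled by the trimmed mean of M values (TMM). The floor for a gene with a count of 0, taken as 3 counts, lay between 0.0932 and 0.189 CPM. PRMT5 stood at 24.9 to 32.8 CPM in the 6 knockdown libraries, against 186 to 230 CPM in the 6 control libraries. All 10 luminal prostate markers were present and summed to 7049 to 10570 CPM. The 10 leukocyte markers summed to 0.492 to 1.54 CPM, with PTPRC at no more than 1 count and CD3E, MS4A1 and NKG7 at 0 in all 12 libraries. Of the 10, 4 were at 0, 5 were too low to test and 1 was tested, and the highest count of any was 26. Low members such as PSMB9 and OAS1, which reached 21 and 17 counts, did not stand above that. Markers of proliferation differed between libraries: the 10 genes summed to 292, 561 and 488 CPM in non-irradiated knockdown replicates 1 to 3, against 362, 107 and 124 CPM in non-irradiated controls. They summed to 519, 257 and 246 CPM in irradiated knockdowns, against 740, 420 and 402 CPM in irradiated controls. In both irradiated groups the replicate 1 library had the highest sum and stood apart in its counts over all genes: chi-square per gene was 59.1 to 138 against replicates 2 and 3, and 9.34 in knockdowns and 13.3 in controls between replicates 2 and 3. Results are therefore also given without both of these libraries, a choice made after seeing the data. Of the marker genes tested, 2 were called in any comparison by edgeR's quasi-likelihood test. The cyclin gene CCNB1 was higher in irradiated than in non-irradiated controls (log2 fold change 1.35, SE 0.27, adjusted p = 0.0301), and the collagen gene COL3A1 was higher in the knockdown over both states (1.86, SE 0.32, adjusted p = 0.00721). The 8 fibroblast markers summed to 16.9 to 26.4 CPM in the 6 knockdown libraries and 12.5 to 27.8 CPM in the 6 controls, and the 4 endothelial markers to 6.07 to 33.0 CPM in knockdowns and 14.0 to 49.3 CPM in controls; the part of these differences in the results was not tested.

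Of the 39 genes, none had 0 counts in all 12 libraries, 33 passed the filter on low counts and were tested, and 6 were too low to test. The 6 were the antiviral effectors XAF1, OAS2, IFI44L, BST2 and IFITM1 and the immunoproteasome subunit PSMB8. XAF1, a proapoptotic interferon-stimulated gene, had 1 count in each of 2 libraries and 0 in the other libraries. OAS2, a synthetase that activates RNase L, reached 2 counts, IFI44L reached 5, PSMB8 reached 8, BST2, also called tetherin, reached 9, and the membrane protein IFITM1 reached 12. The filter dropped these 6 genes, so differences in them were not tested, and at this depth their counts are too few to judge by. Of IFITM1 exon positions 32.5% overlap IFITM2 on the same strand, and 21.2% of those of PSMB8 overlap a gene on the other strand. Their low counts are therefore also uncertain.

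Levels per kb of exon spread over several orders of magnitude. B2M, the light chain of class I molecules, led with a mean of 64.2 CPM per kb over the 12 libraries. It was followed by IFITM3, which blocks virus entry, at 31.6 CPM per kb, the ubiquitin-like modifier ISG15 at 28.0, the ubiquitin ligase TRIM25 at 21.6 and HLA-C at 19.4. STAT2 and the ubiquitin ligase DTX3L stood at 12.3 and 12.0 CPM per kb. The class I genes were uneven: TAP1 had 8.45 CPM per kb, HLA-B 7.79, TAP2 2.61 and PSMB9 0.145. Lowest among tested genes was OAS1, at 0.0536 CPM per kb.

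**Figure D1:**
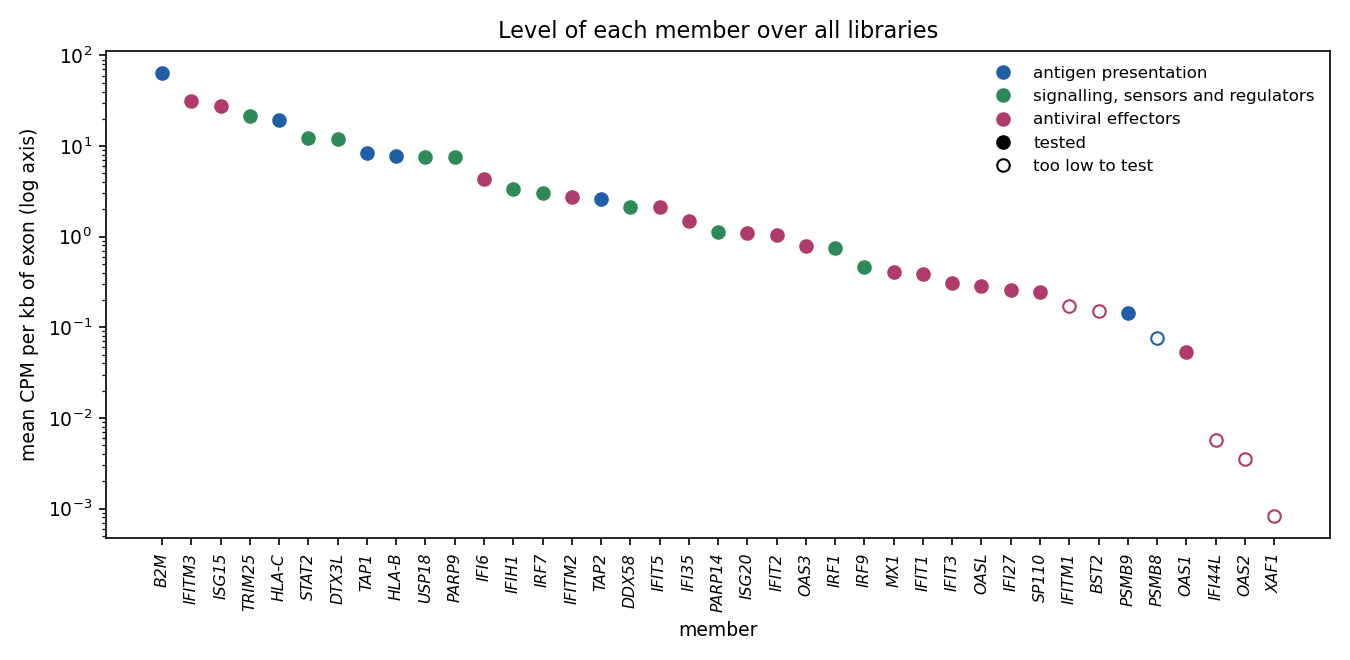
Mean level of each of the 39 genes over all 12 libraries, in CPM per kb of exon on a log axis, in descending order. Colours give the role, filled points were tested and open points were too low to test; B2M is highest at 64.2 and XAF1 lowest.

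The pathway upstream of these genes was partly present. Among 9 interferon genes IFNB1 alone had any count, at most 2, and the other 8 were at 0 in all 12 libraries. Of 15 interferon receptor and JAK-STAT genes 12 were tested. JAK1, the kinase shared by type I, II and III interferon receptors, averaged 10.8 ± 1.68 and 14.3 ± 0.384 CPM in irradiated and non-irradiated knockdowns, against 11.2 ± 3.87 and 13.9 ± 1.79 CPM in irradiated and non-irradiated controls (SD, n = 3 each). JAK1 was not called in any of the 6 comparisons, and its smallest adjusted p of the quasi-likelihood test was 0.342.

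Promoters of the genes were read from RefSeq (GRCh38.p14), as windows from 250 bases before to 50 after the annotated start. A window was found for 33 of the 39 genes, 28 of them tested; some genes have several. The ISRE, searched as GAAA, any 2 bases and GAAA again, or as TTTC, any 2 bases and TTTC on the other strand, stood in a window of 21 of 33 genes (63.6%), against 4.38% of all 27305 genes with a window. The shorter core AANNGAAA or TTTCNNTT, which lies inside every ISRE match, stood in 30 of 33 (90.9%), against 26.7% of all genes. The letters TTCNNNGAA, the STAT dimer element called GAS, stood in 12 of 33 (36.4%), against 9.38% of all genes. The windows printed are those of the genes called lower in the knockdown, HLA-B, HLA-C and TAP2, and that of B2M, which pairs with the heavy chains and was not called, at chr6:31357130-31357429 on the minus strand for HLA-B, chr6:31272043-31272342 on the minus strand for HLA-C, chr6:32838690-32838989 on the minus strand for TAP2 and chr15:44711267-44711566 on the plus strand for B2M. Capitals mark the core.
HLA-B promoter: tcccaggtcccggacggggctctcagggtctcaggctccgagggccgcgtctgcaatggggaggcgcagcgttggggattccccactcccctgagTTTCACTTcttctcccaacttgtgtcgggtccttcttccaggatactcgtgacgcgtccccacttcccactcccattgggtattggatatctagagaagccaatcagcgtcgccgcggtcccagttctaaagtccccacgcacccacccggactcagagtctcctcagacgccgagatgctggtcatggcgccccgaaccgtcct
HLA-C promoter: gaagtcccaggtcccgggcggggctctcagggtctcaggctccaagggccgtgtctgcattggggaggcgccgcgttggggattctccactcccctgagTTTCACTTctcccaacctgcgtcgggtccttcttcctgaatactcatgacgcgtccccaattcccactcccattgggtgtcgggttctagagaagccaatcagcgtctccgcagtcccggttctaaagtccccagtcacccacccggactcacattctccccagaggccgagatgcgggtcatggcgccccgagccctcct
TAP2 promoter: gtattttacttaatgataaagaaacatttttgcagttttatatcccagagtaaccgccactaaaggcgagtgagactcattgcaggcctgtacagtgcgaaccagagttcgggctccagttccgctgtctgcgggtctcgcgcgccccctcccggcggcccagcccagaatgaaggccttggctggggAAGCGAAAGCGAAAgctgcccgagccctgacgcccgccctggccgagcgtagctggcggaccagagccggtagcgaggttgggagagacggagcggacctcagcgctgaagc
B2M promoter: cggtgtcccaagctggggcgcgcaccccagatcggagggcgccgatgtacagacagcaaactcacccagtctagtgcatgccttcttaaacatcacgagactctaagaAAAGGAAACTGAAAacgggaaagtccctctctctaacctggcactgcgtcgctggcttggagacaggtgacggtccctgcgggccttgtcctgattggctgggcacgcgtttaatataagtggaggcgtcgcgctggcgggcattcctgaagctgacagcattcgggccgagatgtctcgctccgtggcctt
HLA-B and HLA-C each hold 1 core and no ISRE match, and their windows are identical at 269 of 304 aligned positions (88.5%). TAP2 holds 2 overlapping cores that contain 1 ISRE match. In B2M 2 ISRE matches overlap. These are matches of letters and say nothing of which factor was bound.

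Without irradiation, knockdown cells had less HLA-B and HLA-C mRNA, which encode class I heavy chains, while the other 4 tested class I genes were not called. HLA-B had 21.7, 14.6 and 12.7 CPM in knockdown replicates 1 to 3, against 32.1, 39.2 and 42.4 CPM in controls. HLA-C had 38.1, 32.6 and 29.1 CPM in knockdowns, against 58.5, 57.1 and 66.0 CPM in controls. For both genes every knockdown library lay below every control library. The HLA-B mean was 43.1% of the control mean and that of HLA-C 54.9%, against 15.7% for PRMT5. In bulk RNA, less transcript in every cell and loss of it in a fraction of cells cannot be told apart.

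By edgeR's quasi-likelihood test with Benjamini-Hochberg adjustment over 17191 genes, HLA-B had a log2 fold change of -1.22 (SE 0.22, adjusted p = 0.0233) and HLA-C one of -0.87 (SE 0.13, adjusted p = 0.00783). These 2 were the members called of 33 tested, both lower; of all genes tested 1.54% were called either way and 1.2% lower. Leaving out knockdown replicate 2 or 3 or control replicate 2 or 3 ended the HLA-B call (adjusted p = 0.136, 0.108, 0.0793 and 0.113), and leaving out knockdown replicate 2 or 3 ended that of HLA-C (0.0639 and 0.0560). Knockdown and control libraries did not overlap for 8 members that lay lower in the knockdown and 4 that lay higher, against 15.8% and 15.4% of all genes. With the replicate number as a block, 12 members were called, 2 higher and 10 lower, against 27.8% of all genes called either way, 13.7% higher and 14.1% lower. With it HLA-B and HLA-C stood at adjusted p = 0.00517 and 0.000307.

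TAP2, one subunit of the peptide transporter, had 18.1, 12.0 and 11.1 CPM in non-irradiated knockdowns, against 23.4, 21.9 and 18.2 CPM in controls. The groups did not overlap, by a narrow margin. Its log2 fold change of -0.63 (SE 0.19) did not pass without the block (adjusted p = 0.118 by the quasi-likelihood test) and passed with it (adjusted p = 0.00209), as it did with DESeq2 (0.0386). TAP1, its partner subunit, lay the other way, at 40.9, 37.2 and 40.8 CPM in knockdowns, against 25.7, 32.6 and 35.1 CPM in controls. The difference of 0.35 on the log2 scale (SE 0.18) was not called (adjusted p = 0.351 by the quasi-likelihood test; 0.0333 with the block).

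B2M stood at 348, 308 and 339 CPM in non-irradiated knockdowns, against 345, 275 and 269 CPM in controls, and the groups overlapped (adjusted p = 0.772 by the quasi-likelihood test). PSMB9, the inducible proteasome subunit, was near the floor: 0.662, 0.349 and 0.727 CPM in knockdowns, against 0.440, 0.126 and 0.287 CPM in controls. PSMB8, its partner, had 4, 8 and 6 counts in knockdowns, against 2, 3 and 6 counts in controls. PSMB9 was not called (adjusted p = 0.330 by the quasi-likelihood test).

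**Figure D2:**
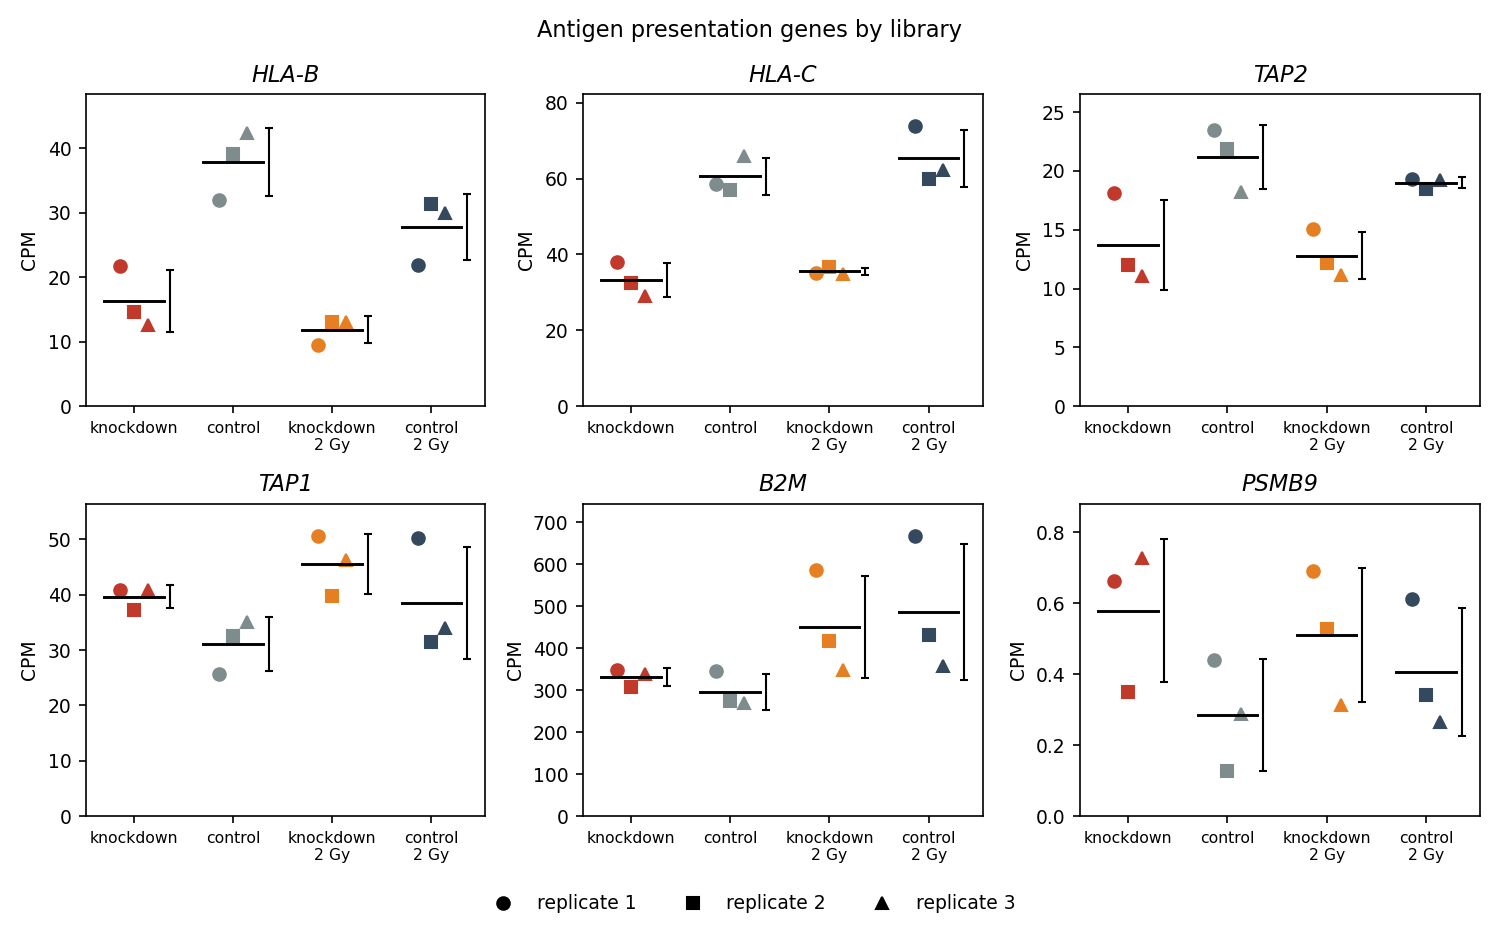
CPM of HLA-B, HLA-C, TAP2, TAP1, B2M and PSMB9 in every library, by group; marker shapes give the replicate number, horizontal lines the group mean and bars the SD (n = 3). HLA-B and HLA-C lie lower in knockdowns than in controls in both irradiation states, B2M overlaps, and TAP1 has the higher mean in knockdowns.

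The 16 tested antiviral effectors had no call without irradiation and a median log2 fold change of -0.42, against 0.00 for all genes tested. With the block, IFIT2, IFIT3, IFIT5, OASL, ISG20 and IFI27 fell and IFITM3 rose. IFIT2, an inhibitor of viral translation, had a log2 fold change of -1.04 (SE 0.51; adjusted p = 0.323 by the quasi-likelihood test, 0.00171 with the block). IFI27, a mitochondrial interferon-stimulated protein, stood at 0.692 to 1.10 CPM in knockdowns, against 1.20 to 2.01 CPM in controls (log2 fold change -0.94, SE 0.29, adjusted p = 0.125; 0.0138 with the block). OASL, a cofactor of RIG-I, varied widely with the replicate number: 1.71, 0.244 and 0.173 CPM in knockdown replicates 1 to 3, against 6.35, 0.674 and 0.335 CPM in controls. IFITM3 stood at 47.0 to 54.3 CPM in knockdowns, against 26.4 to 36.3 CPM in controls (log2 fold change 0.71, SE 0.30, adjusted p = 0.254; 0.0454 with the block), and 17.4% of its 50-base words are shared with other genes, chiefly IFITM2. ISG15 and IFIT1, often used as readouts of an interferon response, stood at log2 fold changes of -0.10 (SE 0.24) and -0.13 (SE 0.61) and were not called.

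Among the 11 signalling genes none was called without irradiation, and their median log2 fold change was 0.02. With the block DDX58, which encodes the RNA sensor RIG-I, was lower (log2 fold change -0.49, adjusted p = 0.00879). IRF1, a transcription factor of the class I and immunoproteasome genes, stood at 8.16, 8.43 and 8.96 CPM in knockdowns, against 6.29, 7.59 and 6.75 CPM in controls. The groups did not overlap, and its log2 fold change of 0.31 (SE 0.27) was not called (adjusted p = 0.598). IRF9 had the highest log2 fold change of the 11, at 0.56, and was not called. It stood at 2.10, 2.16 and 2.25 CPM in knockdowns, against 1.13, 1.52 and 1.72 CPM in controls, without overlap. STAT2, the RNA sensor IFIH1, IRF7, PARP9 and DTX3L lay between PARP14 at -0.19 (SE 0.39) and USP18 at 0.19 (SE 0.13).

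With irradiation the same pair of heavy chains was lower again, by nearly the same size. HLA-B had 9.49, 13.1 and 13.0 CPM in irradiated knockdowns, against 22.0, 31.4 and 30.0 CPM in irradiated controls. HLA-C had 35.2, 36.7 and 35.0 CPM in irradiated knockdowns, against 73.9, 59.8 and 62.2 CPM in irradiated controls. Neither gene's groups overlapped, and the knockdown means were 42.7% and 54.5% of the control means. The log2 fold changes were -1.23 for HLA-B (SE 0.22, adjusted p = 0.0454 by the quasi-likelihood test) and -0.87 for HLA-C (SE 0.13, adjusted p = 0.0142).

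These were again the 2 members called of 33, against 0.297% of all genes called either way and 0.291% called lower. The HLA-B call was lost in 10 of 12 fits that left out 1 library (adjusted p up to 0.180), all but those without non-irradiated knockdown 1 or irradiated control 1. It was also lost with scaling by library size alone (0.0624) and in a fit of the 6 irradiated libraries (0.276); that of HLA-C was lost without irradiated knockdown replicate 2 or 3 or irradiated control replicate 3 (0.0849, 0.131 and 0.0521) and in the fit of 6 (0.231). Without both irradiated libraries numbered 1, HLA-B and HLA-C were called (adjusted p = 0.0111 and 0.00875). With the block 7 members were called, 1 higher and 6 lower, against 11.5% of all genes called either way, 5.43% higher and 6.05% lower. Libraries did not overlap for 6 members lower in the knockdown and 1 higher, against 7.72% and 5.82% of all genes.

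TAP2 had 15.1, 12.1 and 11.2 CPM in irradiated knockdowns, against 19.3, 18.5 and 19.2 CPM in irradiated controls, without overlap (log2 fold change -0.57, SE 0.19, adjusted p = 0.354 by the quasi-likelihood test; 0.00949 with the block). IFI35, an interferon-induced leucine zipper protein, had 1.46, 1.86 and 2.38 CPM in irradiated knockdowns, against 2.94, 3.11 and 3.91 CPM in irradiated controls. The groups did not overlap (log2 fold change -0.80, SE 0.24, adjusted p = 0.289; 0.0126 with the block). TAP1 had 50.5, 39.8 and 46.2 CPM in irradiated knockdowns, against 50.2, 31.4 and 33.9 CPM in irradiated controls, and B2M had 585, 417 and 348 CPM in irradiated knockdowns, against 668, 432 and 357 CPM in irradiated controls. Both overlapped and neither was called (adjusted p = 0.741 and 0.944 by the quasi-likelihood test).

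PSMB9 stood at 0.691, 0.527 and 0.315 CPM in irradiated knockdowns, against 0.611, 0.342 and 0.265 CPM in irradiated controls, and PSMB8 had 0, 1 and 2 counts in irradiated knockdowns, against 5, 3 and 5 counts in irradiated controls. Both immunoproteasome genes were at the edge of detection. The antiviral effectors had a median log2 fold change of -0.35 and the signalling genes one of 0.01, against -0.01 for all genes, and none was called. With the block TRIM25 and IFI6 were also lower (adjusted p = 0.0190 and 0.0320), and IRF9, the DNA-binding partner of STAT2, was higher (log2 fold change 0.71, adjusted p = 0.0364).

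**Figure D3:**
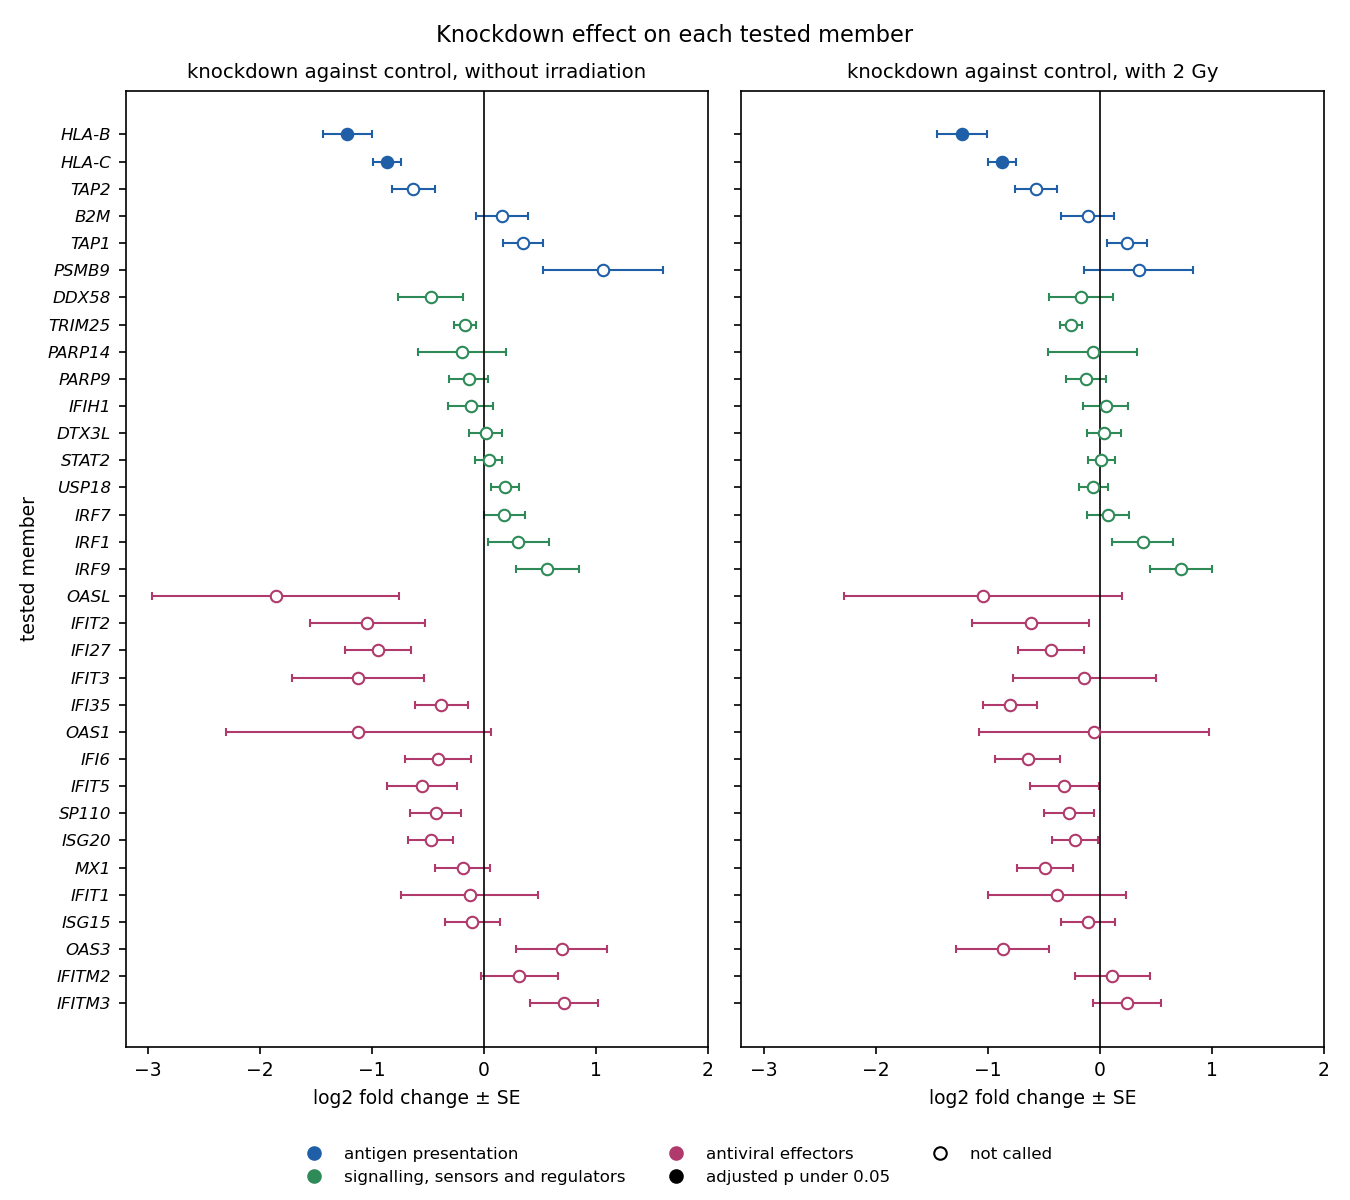
Log2 fold change of knockdown over control with its standard error for each of the 33 tested genes, without irradiation (left) and with 2 Gy (right), grouped by role. Filled points have an adjusted p under 0.05, which holds for HLA-B and HLA-C in both panels.

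Over both irradiation states, 6 knockdown against 6 control libraries, HLA-C, HLA-B and TAP2 were called lower. The log2 fold changes were -0.87 for HLA-C (SE 0.09, adjusted p = 0.000322 by the quasi-likelihood test), -1.22 for HLA-B (SE 0.16, adjusted p = 0.00149) and -0.60 for TAP2 (SE 0.13, adjusted p = 0.0241). They were 3 of 33 members tested, against 6.52% of all genes called either way and 4.2% lower. The calls of HLA-B and HLA-C held in each fit that left out 1 library (highest adjusted p 0.00875 and 0.00259), while that of TAP2 was lost in 7 of 12 (up to 0.0720) and held without non-irradiated knockdown 1, irradiated knockdown 1, non-irradiated control 3 or irradiated control 1 or 2. Without both irradiated libraries numbered 1, HLA-C, HLA-B and TAP2 were called lower (adjusted p = 4.16e-05, 0.000143 and 0.00401), and TAP1 and IRF1 were called higher (log2 fold changes 0.37 and 0.40, adjusted p = 0.0147 and 0.0333). With the block 17 members were called, 4 higher and 13 lower, against 34.3% of all genes called either way, 17% higher and 17.3% lower. All 6 knockdown libraries lay below all 6 control libraries for 3 members and above them for 0, against 1.93% and 1.13% of all genes.

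The 4 members higher with the block were IFITM3, IRF1, IRF9 and TAP1, at log2 fold changes of 0.54, 0.33, 0.64 and 0.31. Without the block IRF9 stood at 0.64 (SE 0.20, adjusted p = 0.0747 by the quasi-likelihood test). Of its exon positions 48.4% overlap another gene on the same strand, so its count is uncertain. TRIM25, the ligase that activates RIG-I, was the most precise of the remainder, at -0.22 (SE 0.07, adjusted p = 0.0854; 0.00247 with the block).

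Same-numbered libraries of the same irradiation state give 6 pairs of knockdown and control. In all 6 pairs the knockdown library was lower for 15 of 33 tested members (45.5%), against 14.4% of all genes tested. Of these 15, 9 were antiviral effectors (IFI6, IFIT2, IFIT5, MX1, OASL, ISG20, IFI27, IFI35 and SP110), 3 were signalling genes (DDX58, PARP9 and TRIM25) and 3 were the class I genes HLA-B, HLA-C and TAP2. Of SP110 exon positions 45.2% overlap other genes, with 24.3% overlapped on the same strand, so its count is uncertain. The knockdown library was higher in all 6 pairs for IRF9, PSMB9 and TAP1, 3 of 33 (9.09%), against 14.5% of all genes. Differences over pairs ran from -1.74 to -0.56 on the log2 scale for HLA-B, from -1.18 to -0.62 for HLA-C and from -0.86 to -0.36 for TAP2. The sum of proliferation markers was lower in the knockdown of 4 of these pairs and higher in 2, and its part in the members' differences was not tested.

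**Figure D4:**
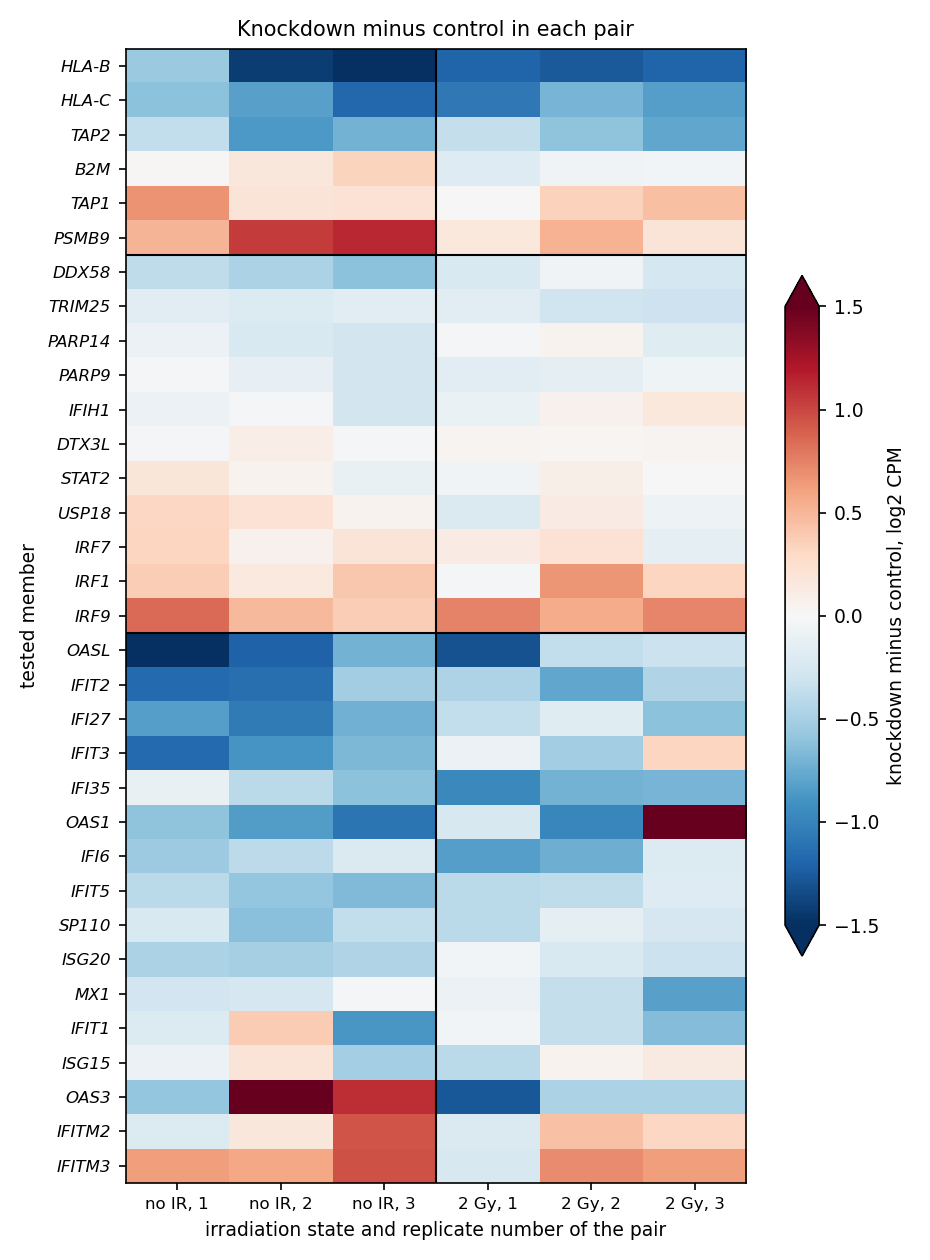
Knockdown minus control in log2 CPM for each tested gene in each of the 6 pairs of same-numbered libraries, blue where the knockdown was lower and red where it was higher. From the top, blocks hold antigen presentation, signalling and antiviral genes; HLA-B, HLA-C and TAP2 are blue throughout.

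Across the 12 libraries the members whose log2 CPM followed the mean of the tested members most closely were IFIT3, IFI27 and OASL, with Pearson correlations of 0.90, 0.82 and 0.81. With HLA-B the closest were IFI35, HLA-C and TAP2, at 0.86, 0.84 and 0.82. These describe libraries that share depth, scaling and the knockdown itself.

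HLA-B and HLA-C lie on chromosome 6 and resemble each other in sequence, and reads of such genes can be split or moved by the counting. Of the 50-base words of HLA-B transcripts 2.72% and of HLA-C 5.38% are shared with other genes, and 18.0% of HLA-B exon positions are overlapped by a gene on the other strand. With the counts of HLA-B and HLA-C summed, the log2 fold change of the knockdown was -0.97 with irradiation and -0.99 in its absence (SE 0.13 each; adjusted p = 0.0103 and 0.00462 by the quasi-likelihood test). TAP2 shares 32.3% of its exon positions with a gene on the same strand, so part of its count could belong to that gene.

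The 3′ untranslated regions (UTRs) were searched for the word TTCCCTA, a word chosen with earlier results of these libraries known. By GENCODE 29 it stands in a 3′ UTR of 6 of 33 tested members (18.2%), against 15% of 12710 tested genes with a 3′ UTR. The 3 genes called lower over both states hold it. The windows are shown with the word in capitals and 10 bases on each side, at chr6:31353989-31354015 on the minus strand for HLA-B, chr6:31268866-31268892 on the minus strand for HLA-C and chr6:32828770-32828796 on the minus strand for TAP2 (GRCh38).
HLA-B window: aacttcttacTTCCCTActgaaaataa
HLA-C window: aacttcttacTTCCCTAatgaagttaa
TAP2 window: tgctttgagtTTCCCTAgagctgtgcg
Counted from 1 at the 5′ end of the window, with the base of HLA-B first, HLA-C differs from HLA-B by C18A, A23G and A24T.

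The difference of the knockdown effects between irradiated and non-irradiated cells was tested for every gene. None of the 33 members was called by edgeR's quasi-likelihood test, against 0% of all 17191 genes, and DESeq2 called 0 members. For HLA-B and HLA-C the difference was -0.01 on the log2 scale (SE 0.31 and 0.18) and for TAP2 it was 0.06 (SE 0.27). The smallest p among members was that of OAS3, a synthetase for long double-stranded RNA. It had 6.34, 12.5 and 11.7 CPM in non-irradiated knockdowns, against 9.55, 4.13 and 5.41 CPM in controls, and 4.19, 2.95 and 3.06 CPM in irradiated knockdowns, against 10.2, 4.13 and 4.28 CPM in irradiated controls. Replicate 1 ran against replicates 2 and 3 without irradiation. The difference was -1.56 (SE 0.58, adjusted p = 0.999967 by edgeR's quasi-likelihood test, unadjusted p = 0.0198), and it was the 1 member of 33 with an unadjusted p under 0.05. USP18, which removes ISG15 from proteins, stood at 16.7, 18.1 and 17.9 CPM in non-irradiated knockdowns, against 13.4, 15.6 and 17.2 CPM in controls, and at 14.7, 16.3 and 16.0 CPM in irradiated knockdowns, against 17.1, 14.9 and 16.9 CPM in irradiated controls. Its difference of -0.25 (SE 0.18) had an unadjusted p of 0.197, and 23.4% of its 50-base words are shared with other genes, chiefly USP41. IFI35, given above with irradiation, had 3.09, 3.21 and 2.22 CPM in non-irradiated knockdowns, against 3.33, 4.26 and 3.45 CPM in controls, and a difference of -0.42 (SE 0.34).

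Among control cells ISG20, an exonuclease that degrades viral RNA, was lower in irradiated than in non-irradiated libraries. It had 4.66, 6.53 and 8.00 CPM in irradiated controls, against 12.0, 11.2 and 12.5 CPM in non-irradiated controls. No irradiated library reached the lowest non-irradiated one, a log2 fold change of -0.90 (SE 0.20, adjusted p = 0.0451 by the quasi-likelihood test). It was the 1 member called of 33, against 2.26% of all genes called either way and 0.878% lower, and the call was lost in 10 of 12 fits that left out 1 library (adjusted p up to 0.168), all but those without irradiated knockdown 1 or irradiated control 3. Irradiated and non-irradiated controls did not overlap for 7 members that lay lower with irradiation and 1 that lay higher, against 13.9% and 13.7% of all genes.

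IRF1 had 2.63, 3.60 and 4.21 CPM in irradiated controls, against 6.29, 7.59 and 6.75 CPM in non-irradiated controls. The groups did not overlap, and the log2 fold change of -0.98 (SE 0.27) was not called (adjusted p = 0.0797 by the quasi-likelihood test; 0.0133 with DESeq2). B2M lay the other way at 668, 432 and 357 CPM in irradiated controls, against 345, 275 and 269 CPM in non-irradiated controls, with a log2 fold change of 0.71 (SE 0.23, adjusted p = 0.118). Replicate 1 of the irradiated controls was the highest, and without it the value was 0.41 (adjusted p = 0.354). Without both irradiated libraries numbered 1, ISG20 and IRF1 were called lower (-0.72 and -0.82, adjusted p = 0.0249 and 0.0184).

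In knockdown cells none of the 33 members was called for irradiation by the quasi-likelihood test (6 had an unadjusted p under 0.05, all lower; DESeq2 called 4), against 3.58% of all genes. OAS3 had 4.19, 2.95 and 3.06 CPM in irradiated knockdowns, against 6.34, 12.5 and 11.7 CPM in non-irradiated knockdowns, a log2 fold change of -1.59 (SE 0.42, adjusted p = 0.0612). IRF1 had 2.57, 5.77 and 5.30 CPM in irradiated knockdowns, against 8.16, 8.43 and 8.96 CPM in non-irradiated knockdowns (-0.91, SE 0.27, adjusted p = 0.0915). ISG20 had 4.53, 5.56 and 6.38 CPM in irradiated knockdowns, against 8.60, 7.91 and 9.14 CPM in non-irradiated knockdowns (-0.64, SE 0.20, adjusted p = 0.107). Without both irradiated libraries numbered 1, OAS3 and IRF1 were called lower (-1.77 and -0.62, adjusted p = 0.0150 and 0.0355). For these 3 genes no irradiated library overlapped a non-irradiated one; without overlap lay 7 members lower and 1 higher, against 14% and 15.8% of all genes.

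The median of the tested members was -0.16 on the log2 scale for irradiation in controls and in knockdowns alike, against 0.00 for all genes. Scaling by library size alone moved the median of all genes by -0.15 in both comparisons and turned the split of calls over all genes to 170 higher and 444 lower in controls, against 238 and 151 with TMM scaling, and to 224 higher and 621 lower in knockdowns, against 374 and 241. In the heavy chains no change with irradiation was called: HLA-B stood at -0.45 (SE 0.22) and HLA-C at 0.11 (SE 0.12) in controls, and HLA-C changed sign with scaling by library size alone.

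**Figure D5:**
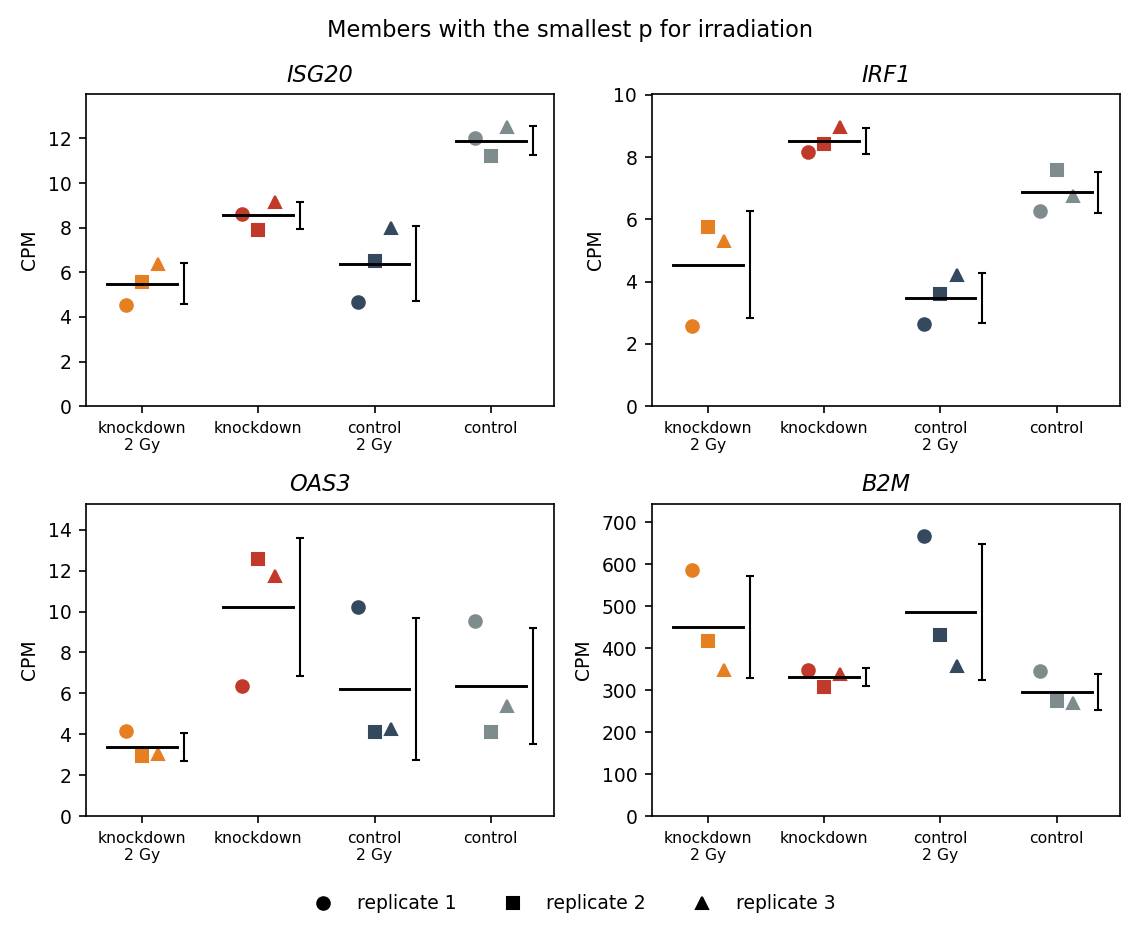
CPM of ISG20, IRF1, OAS3 and B2M in every library, irradiated groups left of the matching non-irradiated groups; marker shapes give the replicate number, horizontal lines the group mean and bars the SD (n = 3). ISG20 and IRF1 lie lower in irradiated libraries of both knockdown and control, OAS3 does so in knockdowns, and B2M is higher with the widest spread in irradiated groups.

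Other genes of the pathway were read from lists. Of the 12 tested receptor and JAK-STAT genes, STAT3 rose over both irradiation states (log2 fold change 0.42, SE 0.11, adjusted p = 0.0398 by the quasi-likelihood test), at 259 ± 40.9 and 250.2 ± 12.2 CPM in irradiated and non-irradiated knockdowns, against 197 ± 41.2 and 182 ± 8.97 CPM in irradiated and non-irradiated controls (SD, n = 3 each). TYK2, a JAK kinase of the type I receptor, fell with irradiation in knockdowns (-0.41, SE 0.09, adjusted p = 0.0338). The other 10 were not called in any comparison. None of 12 tested sensing genes was called in any comparison.

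Of 28 other interferon-induced genes 19 were tested. Over both states ZNFX1, an RNA helicase, and LGALS3BP, a secreted glycoprotein, were higher in the knockdown (log2 fold changes 0.33 and 0.56, adjusted p = 0.0229 and 0.0452 by the quasi-likelihood test), and the mitochondrial nucleotide kinase CMPK2 was lower (-1.0, adjusted p = 0.0405). With irradiation in knockdowns UBE2L6, the conjugating enzyme for ISG15, fell (-1.15, SE 0.26, adjusted p = 0.0359). SAMD9L had 22, 26 and 20 counts in irradiated knockdowns and 18, 36 and 26 in irradiated controls, against 0 in all 6 non-irradiated libraries. It was called higher with irradiation in both (adjusted p = 0.00399 in knockdowns and 0.00713 in controls); a count of 0 in every library of 1 table and in no library of the other follows the tables exactly.

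Among 17 tested other genes of antigen presentation NLRC5, the transactivator of class I genes, fell with irradiation in knockdowns, at 3.33 ± 0.356 CPM in irradiated and 6.58 ± 1.91 CPM in non-irradiated knockdowns (SD, n = 3 each; log2 fold change -0.99, SE 0.24, adjusted p = 0.0445 by the quasi-likelihood test). With knockdown NLRC5 stood at 0.13 over both states (SE 0.17) and was not called. CD274, which encodes PD-L1, had the smallest p of the list for irradiation in controls, at 10.4 ± 4.90 CPM in irradiated and 30.2 ± 7.75 CPM in non-irradiated controls (SD, n = 3 each; -1.53, SE 0.38, adjusted p = 0.0602).

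The proteasome subunits that the immunoproteasome replaces were abundant. PSMB5, which carries the chymotrypsin-like site and is the counterpart of PSMB8, fell with knockdown in both states: 76.8 ± 19.2 CPM in irradiated knockdowns, against 201 ± 55.3 CPM in irradiated controls, and 70.7 ± 2.41 CPM in non-irradiated knockdowns, against 170.2 ± 8.83 CPM in non-irradiated controls (SD, n = 3 each). The knockdown stood at -1.39 with irradiation and -1.27 in its absence on the log2 scale (SE 0.20 each; adjusted p = 0.0142 and 0.0113 by the quasi-likelihood test). PSMB6 and PSMB7 were not called in any comparison.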

How the data were processed

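Polyadenylated RNA of 12 LNCaP libraries was sequenced, 3 in each of 4 groups. The authors deposited raw gene counts, not normalized, in 2 tables of 6 libraries with the layout of featureCounts output, per the file headers. Per the submitters' processing notes the genome build was GRCh38 and the tools included edgeR 3.20.8, Subread 1.5.3 with featureCounts, and STAR 2.5. For the strand setting and the treatment of multiply mapped reads nothing is given in the sources used here.

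The 39 genes were matched by name on the chromosomes; the genes and the lists beside them were chosen with earlier results of these data known. Every library's value is given for genes called, for the 3 with the smallest p in a comparison and for class I genes and IRF1. Other genes named are PRMT5 and JAK1, genes of the pathway lists that were called or had the smallest p of their list in a comparison, the proteasome counterparts, and markers and interferon genes at or near 0 or called. Counts were tested with edgeR 4.0.16 in R 4.3.3: filterByExpr (minimum count 10, total 15), TMM, 1 mean per group over all 12 libraries (8 residual degrees of freedom, coefficient of variation 0.216), quasi-likelihood F test, Benjamini-Hochberg over 17191 genes, called under 0.05. Standard errors are the log2 fold change over the root of F. The script was tested on simulated data. Totals ran from 14801939 to 33158865 counts, a ratio of 2.24, and limits from counts of 0 cover counting error only. No replicates were alike within sampling noise.

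The labels do not say what libraries of the same replicate number share. Pairing within an irradiation state was inferred from correlations in these same libraries. Same-numbered libraries deviated together, with correlations of 0.233, 0.255 and 0.296 without and 0.775, 0.613 and 0.607 with irradiation. Differently numbered libraries correlated at -0.178 to -0.0678 without irradiation; with it, numbers 2 and 3 correlated at 0.476 and 0.396 and number 1 with the others at -0.677 to -0.592, so number 1 against the others is part of the correlation there. A fit with the replicate number as block was therefore set beside the results. Alternatives were DESeq2, other scalings, no filter, blocks, the 6 libraries compared alone and leaving out each library; the sum of HLA-B and HLA-C and leaving out both irradiated libraries numbered 1 were added after seeing the data.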

Additional observations from a re-analysis of the deposited data

Results flagged for a closer look

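B2M lay in opposite directions in the pairs of the 2 irradiation states. Without irradiation the knockdown library was higher in all 3 pairs, by 0.012, 0.16 and 0.34 on the log2 scale for replicates 1 to 3. With irradiation it was lower in all 3 pairs, at -0.19, -0.051 and -0.035. The mean difference over pairs, non-irradiated minus irradiated, was 0.263 on the log2 scale. B2M was picked by its signs from all tested members, no other member showed such signs, and the share over all genes was not counted. The difference of the knockdown effects was tested and not called (log2 difference -0.27, irradiated minus non-irradiated, SE 0.33, adjusted p = 0.999967 by edgeR's quasi-likelihood test, unadjusted p = 0.426).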

How the results depend on the processing

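The number of members called changed most with the replicate block within irradiation states: 12 for knockdown without irradiation, 7 with irradiation and 17 over both states, against 2, 2 and 3. Over all genes it called 4776, 1974 and 5894, against 265, 51 and 1120. DESeq2 called 6 over both states, 2 for irradiation in controls and 4 in knockdowns. Fits of the 6 libraries compared called 4 and 0 members for knockdown without and with irradiation, and 0 and 1 for irradiation in controls and knockdowns. Scaling by library size alone called 1 for knockdown with irradiation and 2 for irradiation in knockdowns, and no filter called 2 for irradiation in controls. Across irradiation states the samples share only a number (correlations of same-numbered libraries -0.150 to 0.143); with a block there, irradiation gave 3 calls in controls and 2 in knockdowns, against 1 and 0, beside 5.61% and 6.73% of all genes. Without both irradiated libraries numbered 1, a choice added after seeing the data, knockdown gave 6 calls without, 2 with and 11 over both irradiation states, beside 14.7%, 1.87% and 19.3% of all genes. Irradiation then gave 2 in controls and 2 in knockdowns, beside 4.97% and 10.3%.

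With 1 library left out, calls ran from 0 to 3, 0 to 2 and 2 to 10 for knockdown without, with and over both irradiation states, from 0 to 2 and 0 to 3 for irradiation in controls and knockdowns, and stayed at 0 for the difference of the knockdown effects. The 10 over both states and the 3 for irradiation in knockdowns came without irradiated control 1, and the 2 for irradiation in controls without irradiated knockdown 1. For knockdown, 0 calls came without non-irradiated knockdown 2 or 3, and with irradiation without irradiated knockdown 2 or 3 or irradiated control 3. The median of tested members ran from -0.27 to -0.04 for knockdown without irradiation, -0.24 to -0.13 with it and -0.24 to -0.11 over both states, from -0.23 to -0.04 for irradiation in controls and -0.21 to 0.01 in knockdowns, and from -0.07 to 0.11 for the difference.

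Values near 0 changed sign. With 1 library left out, B2M ran from -0.36 to 0.19 with irradiation, above 0 without irradiated knockdown 3 (0.04) or irradiated control 1 (0.19). Over both states it ran from -0.10 to 0.18, below 0 without irradiated knockdown 1, irradiated control 2 or 3 or non-irradiated control 3 (-0.10, -0.02, -0.07 and -0.00). For irradiation in knockdowns TAP2 stood at 0.13 without non-irradiated knockdown 1, and PSMB9 ran from -0.45 to 0.086, above 0 without irradiated (0.086) or non-irradiated (0.070) knockdown 3. With scaling by library size alone HLA-C stood at -0.047 for irradiation in knockdowns and -0.050 in controls. The causes were not tested. Of the values recomputed, 710 kept direction and call, 40 lost and 30 gained a call and 11 changed sign. These are values of named members, most of them not called in the main fit, and staying uncalled counts as kept. The tally therefore does not measure how well the calls held, which is given above with each gene called. Depth limits the 6 genes too low to test and PSMB9.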
